A study of Canis lupus familiaris with 51 samples.

Results

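The transcription factors FOXM1, MYBL2 and E2F1 to E2F8 were followed across 51 canine cutaneous mast cell tumors (MCTs). Members were found by gene symbol in the name or description that the array design gives to each probe. Of the 10 genes, 9 had a probe, with 11 probes in all among the 43603 noncontrol probes. FOXM1 and E2F3 had 2 probes each, called probe 1 for the brighter and probe 2 for the dimmer, E2F2 was not matched by name, and every other member had 1 probe.

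Each tumor was a spontaneous MCT of the skin, and each array carried the Cy3-labeled RNA of the central part of 1 tumor mass, collected at surgery. The labels give the case, breed, sex and age of the dog but no tumor class, so the classes used here were taken from the study through the case names. Its reference tumors had been chosen by histological grade and mitotic index. They were 13 differentiated MCTs and 4 undifferentiated MCTs (T9, T57, T73 and T90) that could be matched by name. The dogs of these 4 were 10, 12, 9 and 13 years old, and those of the 13 were 3 to 13 years old. Both classes held dogs of both sexes and of several breeds, and age was not entered in their comparison. A remaining undifferentiated reference tumor matched no label, and LM0 matched no case. A further 7 tumors were predicted undifferentiated and 26 predicted differentiated from these same arrays, with FOXM1 among the genes used for the prediction, and LM0 was given no class here. No group had been treated as part of an experiment, and no normal skin or normal mast cells were measured. Because each array holds a whole biopsy, fewer cells of a type and less RNA per cell cannot be told apart.

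As background, these factors drive or restrain the transcription of the cell cycle. E2F1, E2F2 and E2F3 activate genes of the G1/S transition once the retinoblastoma protein RB1 is phosphorylated by cyclin-dependent kinases. E2F4 and E2F5 bring the related pocket proteins and the MuvB core to the same promoters in resting cells, in the DREAM complex. MYBL2 (B-Myb) and FOXM1 later join MuvB to activate genes of G2 and mitosis. E2F6 represses with Polycomb proteins and without pocket proteins, and E2F7 and E2F8 are atypical repressors that are themselves E2F targets.

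Probes of the factors that the results turn on are shown first, because each level below is the brightness of 1 60-base sequence. FOXM1 and E2F3 are shown by probe 2, while the correlations below used their brighter probe 1, which is not shown. Capitals mark a last triplet that reads as a stop codon, 5′ to 3′ on the strand of the probe.
FOXM1 probe 2: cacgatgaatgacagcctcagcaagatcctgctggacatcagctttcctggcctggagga
MYBL2: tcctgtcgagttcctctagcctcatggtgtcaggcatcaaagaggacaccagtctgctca
E2F1: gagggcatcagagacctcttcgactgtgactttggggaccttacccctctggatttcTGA
E2F8: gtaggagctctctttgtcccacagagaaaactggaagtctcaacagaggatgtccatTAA
E2F3 probe 2: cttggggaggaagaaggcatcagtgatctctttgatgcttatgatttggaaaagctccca
E2F4: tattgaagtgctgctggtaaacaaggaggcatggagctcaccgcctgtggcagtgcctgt
E2F6: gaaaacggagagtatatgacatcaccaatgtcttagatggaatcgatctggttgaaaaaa
FOXM1, MYBL2 and E2F8 were higher in undifferentiated MCTs, and the class differences of E2F1, E2F3, E2F4 and E2F6 did not pass the test. The array design places FOXM1 probe 2 at chr27:44935608-44935667 on the plus strand and the MYBL2 probe at chr24:34353213-34353272 on the plus strand. E2F1 is at chr24:25868710-25868769, E2F8 at chr21:44531156-44531215, E2F4 at chr5:85180764-85180823 and E2F6 at chr17:11137328-11137387, all on the minus strand, and E2F3 probe 2 is at chr35:22101219-22101278 on the plus strand. The genome build of these positions is not given in the sources used here, so exon and UTR were not assigned. FOXM1 probe 1 starts 886 bases further along the same strand than probe 2, and E2F3 probe 1 starts 804 bases further than E2F3 probe 2. Among the 55 pairs of member probes the longest run of bases in common was 8, and no member probe had the sequence of any other probe on the array.

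The reference comparison asked which factors differ between histologically undifferentiated and differentiated MCTs. FOXM1, MYBL2 and E2F8 were higher in the undifferentiated tumors, between 6.64-fold and 7.72-fold. With normexp background correction the folds were smaller, 3.83 for FOXM1 probe 1, 2.67 for MYBL2 and 1.93 for E2F8. E2F1 was 2.42-fold higher but did not pass the threshold, an adjusted p under 0.01 with a fold of at least 2. E2F3, E2F4, E2F5, E2F6 and E2F7 did not pass it either. In all, 4 of 11 member probes were called higher, where 0.738% of the 43603 probes were, and 0 were called lower, where 0.553% were. At an unadjusted p under 0.05 no member was lower either, since E2F3 probe 1, E2F4 and E2F5, the members with a negative difference, had p-values between 0.122 and 0.795 in limma. The study had chosen FOXM1 as a class marker from its reference tumors, so the calls of both FOXM1 probes are no independent support.

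FOXM1 is the forkhead factor of the G2/M program. On a log2 intensity scale, FOXM1 probe 1 read 9.55 in T9, 9.61 in T57, 9.80 in T73 and 10.22 in T90. The 13 differentiated reference tumors ran from 5.47 to 8.41 with a median of 6.83. All 4 undifferentiated tumors were above every differentiated one, and T84 was the highest of the differentiated group. The means were 9.80 ± 0.30 (SD, n = 4) and 6.85 ± 0.83 (SD, n = 13), a log2 difference of 2.95 with a standard error of 0.41 (limma with Benjamini-Hochberg adjustment, adjusted p = 0.000794). FOXM1 probe 2 read 5.68, 6.25, 6.60 and 7.19 in T9, T57, T73 and T90. It ran from 1.84 to 5.15 in the differentiated group, where only 6 of 13 arrays were well above background. Its log2 difference was 2.85 with a standard error of 0.54 (limma, adjusted p = 0.00576), so both probes gave the same direction without overlap of the groups.

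MYBL2, the B-Myb factor that joins the MuvB core, read 8.00 in T9, 9.21 in T57, 8.59 in T73 and 8.26 in T90. The differentiated group ran from 4.13 to 7.66 with a median of 5.90, again with T84 at its top. The groups did not overlap, and the log2 difference was 2.75 with a standard error of 0.54 (limma, adjusted p = 0.00689). The SD was 0.52 among the 4 undifferentiated and 1.07 among the 13 differentiated tumors.

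E2F8, an atypical E2F that acts as a repressor, read 8.22 in T9, 6.54 in T57, 6.25 in T73 and 6.73 in T90. The differentiated group ran from 3.05 to 5.83 with a median of 4.21, and 7 of 13 of its arrays were well above background. T9 was the highest undifferentiated tumor and T84 the highest differentiated one, and the groups did not overlap. The log2 difference was 2.73 with a standard error of 0.44 (limma, adjusted p = 0.00201). Probes with all 4 undifferentiated tumors above all 13 differentiated ones made up 0.951% of the 43514 probes measured on every reference array, and they included 4 of the 11 member probes, those of FOXM1, MYBL2 and E2F8. For FOXM1, a marker the study had chosen from its reference tumors, this separation is no independent support.

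E2F7, the other atypical repressor, was not well above background on any of the 13 differentiated reference arrays and was above it on 1 of 4 undifferentiated ones, T9. No fold is given for it. Over all 51 arrays it was well above background on 2, so its levels below carry little information.

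E2F1 is an activator of genes for S phase entry. It read 7.12 in T9, 6.93 in T57, 6.34 in T73 and 6.51 in T90, while the differentiated group ran from 4.31 to 6.51 with a median of 5.47. The lowest undifferentiated tumor, T73, lay below T84 and T130 of the differentiated group, so the groups overlapped. The log2 difference was 1.28 with a standard error of 0.31 and a 95% confidence interval from 0.63 to 1.92 (limma, adjusted p = 0.0228).

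E2F3, another activator, gave a log2 difference of -0.16 at probe 1 with an interval from -0.53 to 0.22. At probe 2 it was 0.37 with an interval from -0.42 to 1.15. Its undifferentiated tumors were spread widely at probe 2, with 5.24 in T9 and 5.86 in T90 against 7.63 in T73 and 7.74 in T57. The differentiated group ran from 5.47 to 6.85, below T73 and T57 and above T9.

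E2F4, the main partner of the pocket protein p130 in resting cells, had a log2 difference of -0.06 with an interval from -0.55 to 0.43. It read 5.72 in T9 and 6.64 in T57, and 7.24 and 7.45 in T73 and T90, beside a differentiated range of 6.37 to 7.36. E2F5, also a pocket protein partner, had a difference of -0.78 with an interval from -1.78 to 0.23, and 2 of 4 undifferentiated and 11 of 13 differentiated arrays were well above background. E2F6, the Polycomb partner, had a difference of 0.31 with an interval from 0.05 to 0.58 (limma, adjusted p = 0.156). Its SD of 0.15 among the 13 differentiated tumors was the lowest of the 11 member probes.

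**Figure D1:**
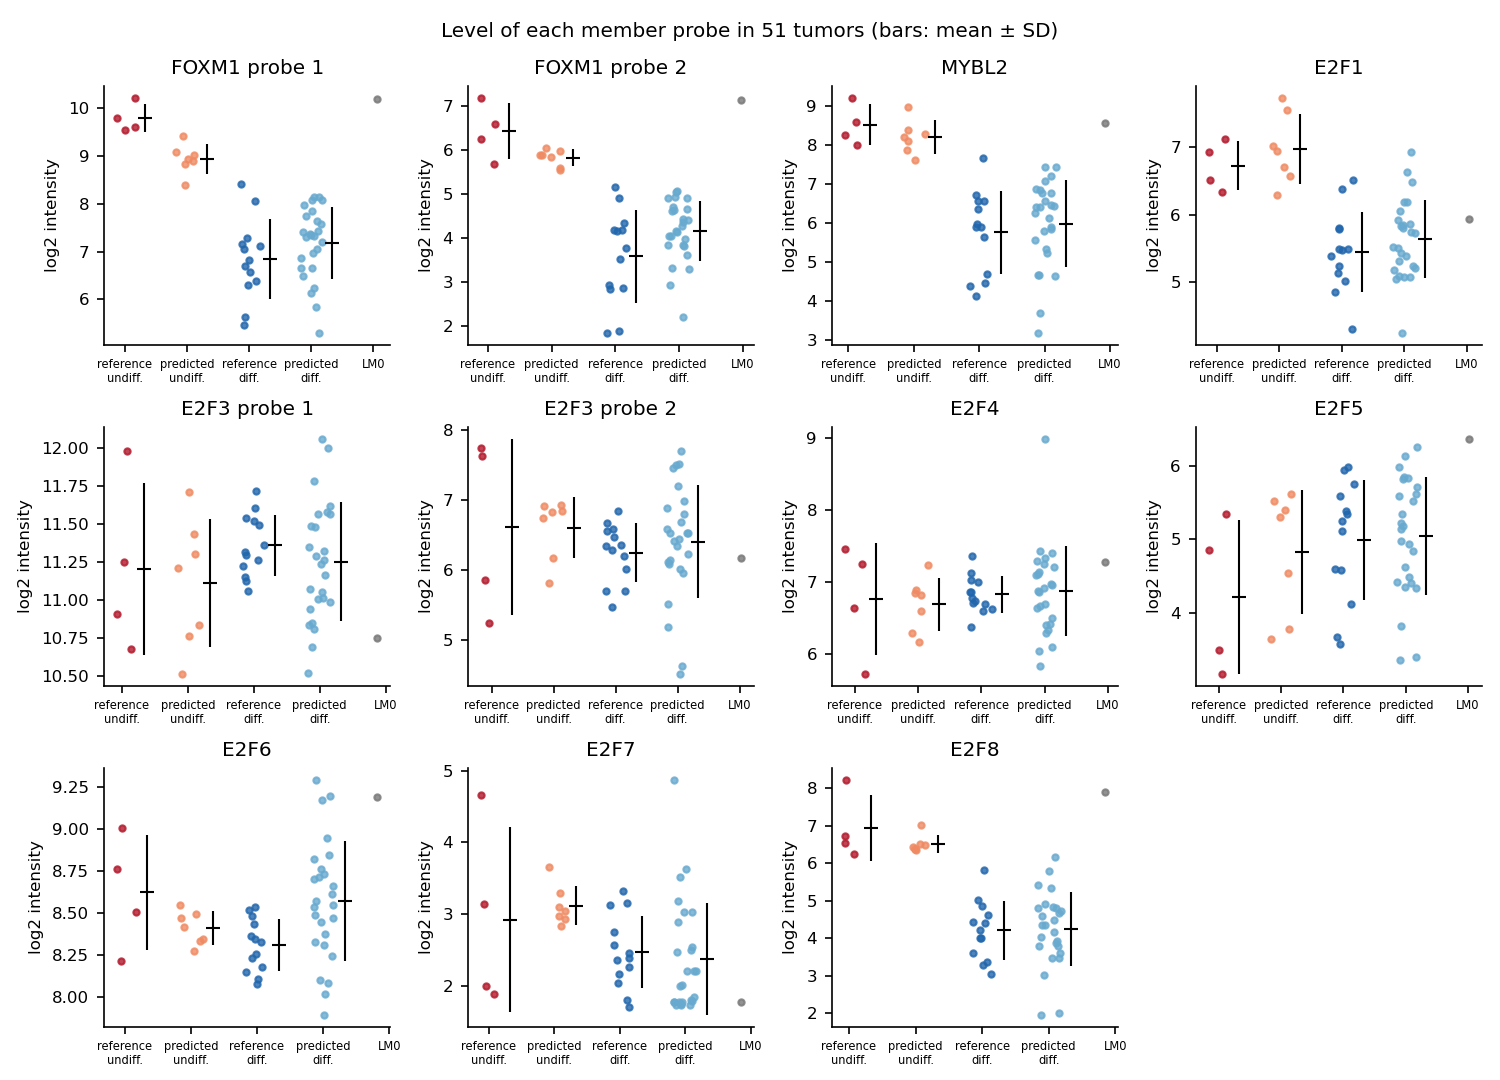
Log2 intensity of each of the 11 member probes (y axis) in the reference and predicted classes and in LM0 (x axis); each point is 1 tumor and the bars are mean ± SD. FOXM1, MYBL2 and E2F8 separated the 4 reference undifferentiated from the 13 reference differentiated tumors, while the points of E2F3 to E2F7 overlapped.

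**Figure D2:**
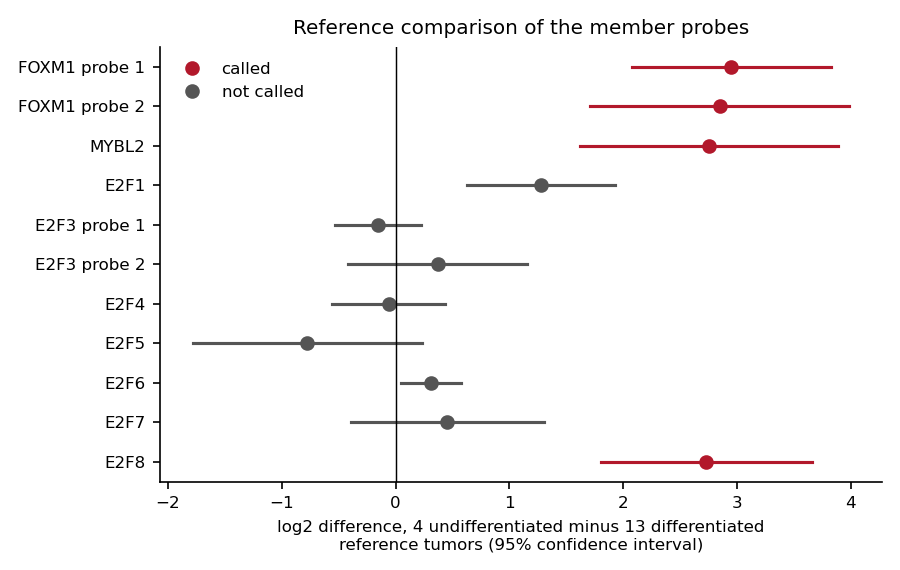
Log2 difference of each member probe (points), undifferentiated minus differentiated reference tumors (x axis), with 95% confidence intervals as lines and called probes in red. The called probes lay between 2.73 and 2.95, E2F1 at 1.28, and the intervals of E2F3, E2F4, E2F5 and E2F7 included 0.

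The array count limits this comparison to 4 against 13 tumors, and which members passed depended on single tumors. Without T9 only FOXM1 probe 1 was called, with E2F8 at 2.30 (limma, adjusted p = 0.0108), and the count was 3 without T57, 2 without T73 and 2 without T90. In the same order 293, 847, 354 and 400 of all probes were called, in either direction. Scan sessions gave a further view, since 4 sessions held 1 undifferentiated tumor each together with 1 to 4 differentiated reference tumors. Within them the undifferentiated tumor exceeded the mean of its differentiated companions in 4 of 4 sessions for FOXM1 probe 1 (by 2.97 to 3.83), MYBL2 (by 2.11 to 4.20), E2F8 (by 2.17 to 5.17) and E2F1 (by 0.81 to 1.76). E2F4 was higher in 2 of 4 sessions and E2F3 probe 1 in 1 of 4. The session of T9 held 1 differentiated reference tumor, T48, so the 5.17 of E2F8 is T9 against T48 alone. The share of all probes higher in 4 of 4 sessions was not counted. With the session as a block 4 member probes were called, where 345 of all probes were. With the slide as a fixed block 0 were, where 54 of all probes were and only 2 slides held both classes. In that fit the log2 differences were 3.87 and 4.05 for the FOXM1 probes, 3.26 for MYBL2 and 2.78 for E2F8, with adjusted p-values from 0.0233 to 0.0695 in limma.

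Class differences were also set against each other inside each tumor, with the exact permutation test (two-sided) over the 2380 ways to choose 4 of 17 tumors. The difference E2F8 minus E2F6 was higher by 2.42 on the log2 scale in undifferentiated tumors (exact p = 0.00042, adjusted p = 0.00063 over 3 pairs). That of E2F8 minus E2F1 was higher by 1.45 (exact p = 0.00042, adjusted p = 0.00063), and 0.00042 is the smallest p this design allows. That of E2F1 minus E2F4 was higher by 1.34 (exact p = 0.00462, adjusted p = 0.00462). The class effect of the repressor E2F8 thus exceeded those of the repressor E2F6 and of the activator E2F1, and that of E2F1 exceeded that of the repressor E2F4. With normexp background correction, an alternative added after seeing the data, the 3 differences shrank to 0.67, 0.44 and 0.49 in the same order (exact permutation test, adjusted p between 0.00378 and 0.0122). E2F8 was well above background on 7 of 13 differentiated arrays.

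Markers of other cells had differences of both signs between the classes, and 0 were called. The 4 mast cell markers measured by name (CMA1, MS4A2, FCER1A and KIT) were well above background on all 51 arrays, and 0 of 4 were called. Their mean log2 level ran from 14.35 to 16.79 in undifferentiated and from 14.84 to 16.02 in differentiated reference tumors. The 5 granulocyte markers measured, S100A8, S100A9, CSF3R, IL5RA and CCR3, had a mean level from 8.81 to 12.70 in undifferentiated and from 7.19 to 10.54 in differentiated tumors. All 5 had positive differences, with a median of 2.35, 4.39 for S100A9 and 4.34 for S100A8, and 0 of 5 were called. The groups overlapped, with CSF3R from 5.93 to 12.76 in undifferentiated and from 4.43 to 6.77 in differentiated tumors. S100A9 ran from 7.54 to 17.02 and from 7.05 to 14.80 in the same order. All 7 fibroblast markers and all 5 keratinocyte markers measured had negative differences, with medians of -0.87 and -0.97 and 0 called. The mean level of the fibroblast list ran from 12.74 to 15.33 against 12.62 to 15.50, and that of the keratinocyte list from 1.91 to 12.28 against 1.79 to 13.40. The lymphocyte, macrophage and endothelium lists, with 6, 6 and 5 markers measured, had 0 called and medians of 0.32, -0.40 and -0.06. In the macrophage list 2 differences were positive and 4 negative, with CSF1R at -1.83 (limma, adjusted p = 0.0220). Of all marker lists, 0 markers were below background on every array, but TEK and TP63 were well above it on only 4 of 51 and CDH5 on 7. The part of these cells in the differences of FOXM1, MYBL2 and E2F8 was not tested.

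Predicted classes are given as values only, since they were derived from these arrays. The 7 predicted undifferentiated tumors read 8.40 to 9.42 for FOXM1 probe 1 with a median of 8.94, all below the lowest of the reference undifferentiated tumors. The 26 predicted differentiated tumors ran from 5.30 to 8.15. MYBL2 ran from 7.60 to 8.97 in the 7 and from 3.18 to 7.44 in the 26. E2F8 ran from 6.36 to 7.01 in the 7 and from 1.95 to 6.17 in the 26. E2F1 ran from 6.29 to 7.73 in the 7 and from 4.24 to 6.92 in the 26, and its predicted undifferentiated mean of 6.98 stood above the reference undifferentiated mean of 6.73.

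Joined with the reference tumors, the classes held 11 undifferentiated and 39 differentiated MCTs. The predicted classes came from these arrays with FOXM1 among the genes used, so the counts below are a description and not a test. The share of all probes with such a separation was not counted. For FOXM1 probe 2 and for E2F8 all 11 were above all 39. For FOXM1 probe 1 and for MYBL2, 10 of 11 were above all 39, and T84 was the single differentiated tumor at or above the lowest undifferentiated one, T77 for FOXM1 and T49 for MYBL2. For E2F1, 6 of 11 were above all 39, and 5 differentiated tumors reached the lowest undifferentiated level. For E2F3 probe 1, E2F4, E2F5, E2F6 and E2F7 none of the 11 was above all 39. T9 stood at an end of the undifferentiated group for several members, lowest for E2F3 probe 2, E2F4 and E2F5 and highest for E2F6, E2F7 and E2F8.

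Levels of the members were then followed across the 39 differentiated MCTs, so that the class difference did not enter. The levels of FOXM1, MYBL2, E2F1 and E2F8 were correlated with each other, and no correlation of these with the other members passed the test before values were centred within slides. FOXM1 probe 1 and E2F8 had a Pearson r of 0.80 (permutation p = 1e-05, adjusted p = 0.00012) and a Spearman rho of 0.84 (permutation p = 1e-05, adjusted p = 0.00018). MYBL2 and E2F8 had an r of 0.79 (permutation p = 1e-05, adjusted p = 0.00012) and a rho of 0.76 (permutation p = 1e-05, adjusted p = 0.00018). FOXM1 and MYBL2 had an r of 0.73 (permutation p = 1e-05, adjusted p = 0.00012) and a rho of 0.66 (permutation p = 2e-05, adjusted p = 0.00024). A p of 1e-05 is the smallest that 100000 resamples can give, and the adjustment was over 36 pairs.

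E2F1 was correlated with the same 3 factors. Its r was 0.58 with FOXM1 (permutation p = 0.00015, adjusted p = 0.00135; rho 0.64, p = 5e-05, adjusted p = 0.00045). It was 0.56 with E2F8 (permutation p = 0.00022, adjusted p = 0.00144; rho 0.61, p = 0.00011, adjusted p = 0.000792). It was 0.55 with MYBL2 (permutation p = 0.00024, adjusted p = 0.00144; rho 0.52, p = 0.00082, adjusted p = 0.00492). The relation of E2F1 to E2F4 had an r of 0.01 (permutation p = 0.945, adjusted p = 0.945; rho 0.04, p = 0.787, adjusted p = 0.905).

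Each of the 6 pairs among these 4 genes, a set formed after their values were seen, was past an adjusted p of 0.05. Of the 20 pairs between them and the other members 0 were, with r between -0.28 and 0.08. The share of all probe pairs past that threshold in these tumors was not counted. Centred within slides, on the 36 tumors that shared a slide with another, the 6 pairs had r between 0.45 and 0.90 and the 20 pairs r between -0.47 and 0.29. There 2 of the 20 passed the test, E2F3 with E2F8 (r = -0.47, permutation p = 0.00414, adjusted p = 0.0213) and E2F4 with E2F8 (r = -0.42, permutation p = 0.00993, adjusted p = 0.0357). Without the 2 tumors farthest from the median of the first gene, and without centring, the 6 pairs had r between 0.49 and 0.81. In the 11 undifferentiated tumors, given as a description, the same 6 pairs had r between -0.26 and 0.21.

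Of the 10 pairs among the remaining members, 2 were past the threshold. E2F3 and E2F4 had an r of 0.47 (permutation p = 0.00291, adjusted p = 0.0150) and a rho of 0.36 (permutation p = 0.0277, adjusted p = 0.106), but without the 2 farthest tumors r was 0.26, so the relation rests on those samples. E2F4 and E2F7 had an r of -0.47 (permutation p = 0.00548, adjusted p = 0.0247) and a rho of -0.41 (permutation p = 0.0099, adjusted p = 0.0509), with E2F7 above background on 1 of 39 arrays.

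**Figure D3:**
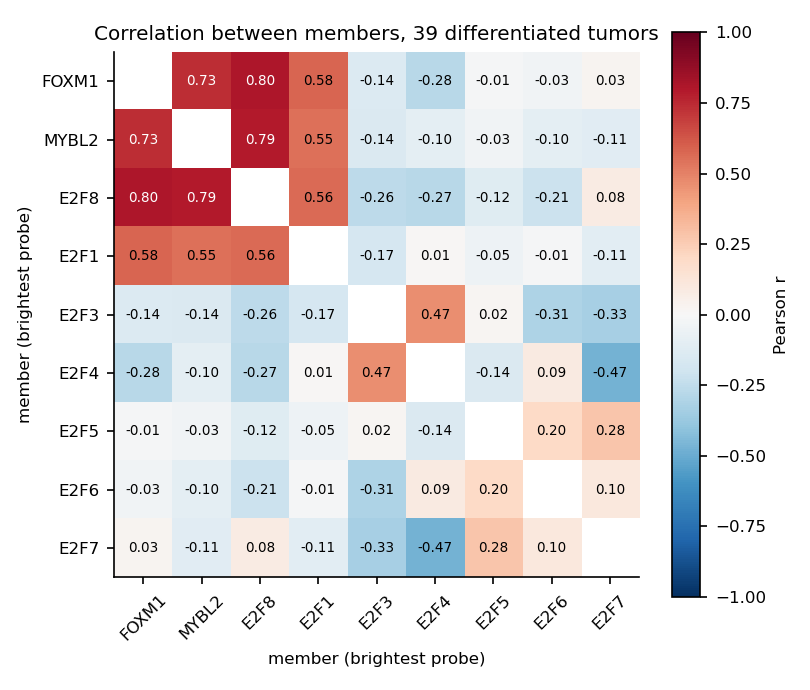
Pearson r (color and numbers) between the brightest probes of 9 members over 39 differentiated MCTs; both axes list the members. The block of FOXM1, MYBL2, E2F8 and E2F1 held r between 0.55 and 0.80, and its pairs with the other members lay between -0.28 and 0.08.

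**Figure D4:**
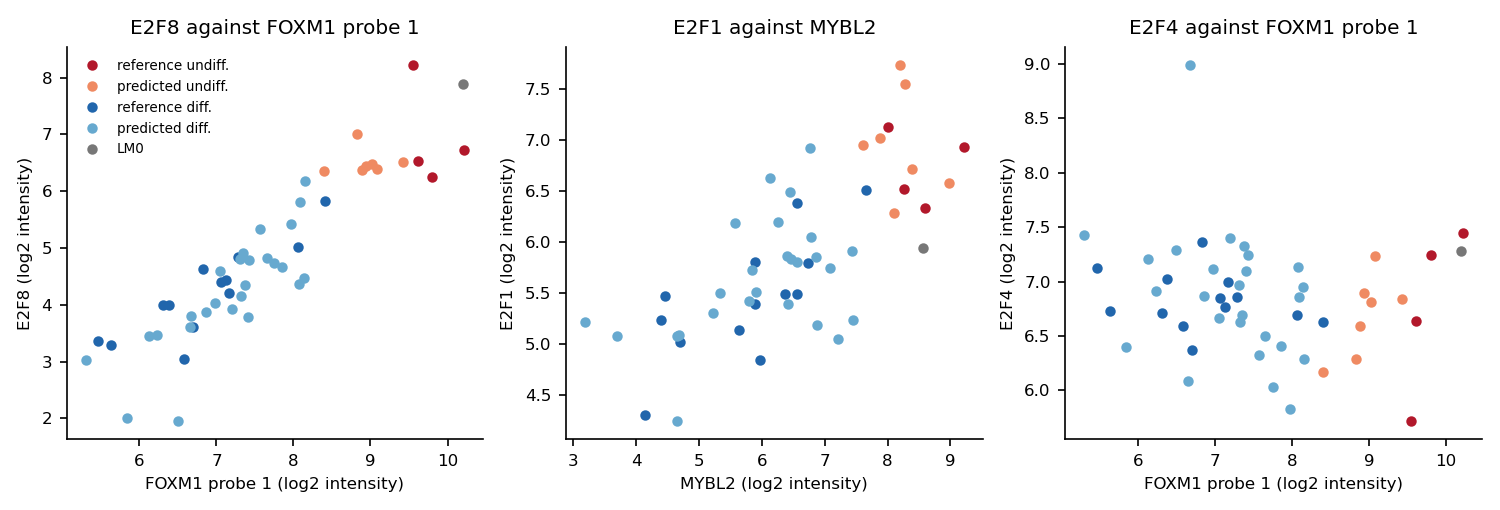
Log2 intensity of E2F8 against FOXM1 probe 1, of E2F1 against MYBL2 and of E2F4 against FOXM1 probe 1; each point is 1 tumor, colored by class. E2F8 climbed with FOXM1 over the differentiated tumors (r = 0.80), while E2F4 had an r of -0.28 with FOXM1 there.

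Among 13217 symbol-named probes well above background on most of the 39 arrays, those most like each member over the same tumors are given as a description. For FOXM1 probe 1 they were CDC20 (r = 0.94), an activator of the anaphase-promoting complex, CCNB2 (0.93), a mitotic cyclin, and NEK2 (0.92), a centrosome kinase. For MYBL2 they were NDC80 (0.85) and NUF2 (0.84), both of the kinetochore, and RACGAP1 (0.84), which acts in cytokinesis. For E2F8 they were KIF11 (0.87), a spindle motor, SPAG5 (0.87), a spindle protein, and NUF2 (0.86). For E2F1 they were TK1 (0.82), the thymidine kinase of S phase, MCM5 (0.80), a helicase subunit of DNA replication, and PKMYT1 (0.79), an inhibitory kinase of CDK1. E2F4 and E2F6 had other neighbors, namely SCAMP4 (0.88), USP10 (0.81) and UCK1 (0.80) for E2F4, and GOLGA7 (0.79), DDX47 (0.77) and EIF4E (0.76) for E2F6.

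Other genes of the pathway were counted in lists. Of 23 measured FOXM1 and MuvB target genes of G2/M, 13 were higher in undifferentiated reference tumors and 0 lower, with a median log2 difference of 1.85. Over all 35619 probe names the median was 0.03, and 0.752% were called higher and 0.533% lower. TTK, the spindle checkpoint kinase, was higher by 3.24 (SE 0.53), NUF2 by 3.24 (SE 0.51) and TOP2A, the topoisomerase of mitotic chromosomes, by 3.15 (SE 0.53). CCNB2, CDC20, NUF2 and PRC1, all called, and CDCA8, not called, were class markers that the study had chosen from its reference tumors. These genes of the list are no independent support. Of 27 measured E2F target genes of G1/S, 12 were higher and 0 lower, with a median of 1.07. RRM2, a subunit of ribonucleotide reductase, was higher by 3.50 (SE 0.50), CDC6, which licenses replication origins, by 3.29 (SE 0.43) and cyclin A2 (CCNA2) by 3.17 (SE 0.49). RRM2 was well above background on 4 of 13 differentiated arrays, CDC6 on 6 and TOP2A on 9. With normexp background correction their differences lay between 1.06 and 1.18, beside 2.06 for CCNA2, 1.92 for TTK and 2.37 for NUF2. All 27 differences in the list of E2F target genes were positive. MKI67 was not matched by name, so its planned correlation with the members was not made.

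Upstream genes were counted in the same way. Of 14 measured G1 regulators of RB, 2 were called higher and 0 lower: the E cyclins CCNE2, by 2.20 (SE 0.43), and CCNE1, by 1.41 (SE 0.26). Of 10 measured DREAM, MuvB and pocket protein genes 0 were called, with a median of 0.26. LIN9, a MuvB subunit, had a difference of 0.82 (SE 0.16; limma, adjusted p = 0.00792), under the fold of 2. RB1 had 0.59 (SE 0.28), RBL2, which encodes p130, -0.51 (SE 0.22), and the dimerization partners TFDP1 and TFDP2 had 0.12 (SE 0.53) and -0.07 (SE 0.23). RBL1 was not matched by name. Of 10 measured E2F6 Polycomb partners 0 were called, with a median of 0.20.

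**Figure D5:**
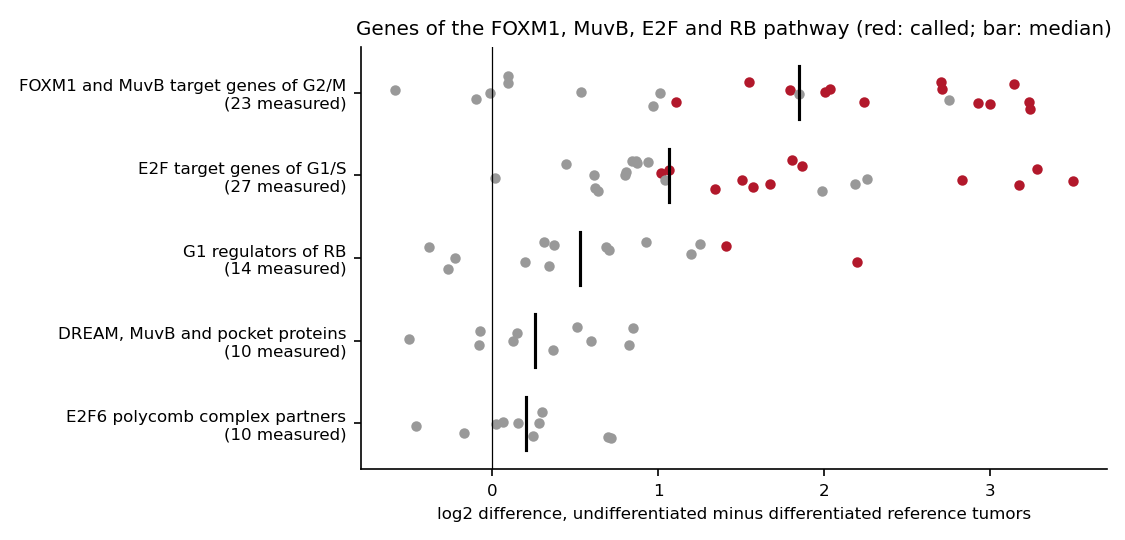
Log2 difference, undifferentiated minus differentiated reference tumors (x axis), of each measured gene in 5 lists (y axis); points are genes, red points were called and bars are medians. The lists of FOXM1 and E2F targets had medians of 1.85 and 1.07, and those of DREAM and E2F6 partners 0.26 and 0.20, with 0 called.

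Sex, age and breed were compared at an adjusted p under 0.05. Between 19 male and 30 female dogs 0 of 11 member probes were called, where 0.0619% of all probes were. An unadjusted p under 0.05 in limma was found for 5 of them and for 2708 of all 43603 probes. E2F8 was higher in males by 1.14 on the log2 scale with a 95% confidence interval from 0.39 to 1.88 (limma, adjusted p = 0.791). Classes and sexes were not balanced, with 6 males and 4 females among undifferentiated and 12 males and 26 females among differentiated tumors. Within the differentiated tumors E2F8 was higher in males by 0.62 with an interval from 0.0040 to 1.24 (limma, adjusted p = 0.835), and 1 member probe had an unadjusted p under 0.05. Over dogs of 3 to 14 years the slopes per year ran from -0.08 to 0.10, with 0 members called, where 0% of all probes were. With an unadjusted p under 0.05 in limma there were 0 members and 1061 of all 43603 probes. Between 9 Boxers and 9 Labrador Retrievers 0 members were called, where 0.0986% of all probes were, with differences from -0.51 to 0.42. There 0 members and 2154 of all 43603 probes had an unadjusted p under 0.05 in limma.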

How the data were processed

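RNA of 51 canine MCTs was hybridized by the authors to one-color Agilent arrays, 1 tumor per array, on 15 slides scanned in 9 sessions. The authors extracted the scans with Feature Extraction 9.5.1.1 and deposited the processed signal, a background-subtracted intensity not normalized between arrays. They also deposited an intensity table quantile-normalized over the arrays, blank where a spot was not found, which was used as an alternative. Between 59.4% and 74.8% of spots per array were well above background, and the number of arrays limits the precision.

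With R 4.3.3, log2 values of the intensity were quantile-normalized across the 51 arrays. Control spots were left out, outlier spots were set to missing and spots of a probe averaged. Groups were compared with limma 3.58.1 and Benjamini-Hochberg adjustment over 43603 probes, and the fit was tested on simulated data. Genes were named by the files, and 9 of 9 member symbols were in the RefSeq gene table. For a gene with several probes the brightest was used. P-values measure the spread between tumors, each from 1 array. Correlations used 100000 permutations. The named genes were all members, per list the 3 with the largest called difference in each direction, RB1, RBL1, RBL2, TFDP1, TFDP2, LIN9, MKI67 and the 3 genes most like 6 members. Members and lists were chosen with earlier results of these data known. Figures were drawn with matplotlib.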

Additional observations from a re-analysis of the deposited data

Results flagged for a closer look

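T104 was the only one of the 7 predicted undifferentiated tumors set apart from its group in E2F8, at 7.01 against 6.36 to 6.52 in the other 6. Of 22 groups tested for such a gap 1 showed it, and chance flags about 1 in 20.

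LM0, which entered only an alternative, is the array left when all other cases are matched by name, beside an undifferentiated reference tumor of the study that matched no label. It read above every one of the 39 differentiated tumors for 5 member probes. The share of all probes for which it did so was not counted, and 62.2% of its spots were well above background. LM0 read 10.20 for FOXM1 probe 1, where the differentiated tumors reached 8.41, and 7.14 for FOXM1 probe 2, where they reached 5.15. It read 8.57 for MYBL2 against 7.66, 7.89 for E2F8 against 6.17 and 6.37 for E2F5 against 6.25. For E2F1 it read 5.94, inside the differentiated range of 4.24 to 6.92.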

How the results depend on the processing

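The 4 member probes called in the reference comparison stayed at 4 with the 75th percentile, the 17 arrays normalized alone, slide as a random block, dim probes left out, flagged spots kept, scan session as a fixed block and LM0 counted as undifferentiated. Those settings called between 345 and 805 of all probes, in either direction. The member probes called were 5 at an adjusted p under 0.05 with any fold, where 2545 of all probes were called. They were 2 with normexp background correction, where 304 probes of all were called. Log2 differences there were 1.94 and 0.81 for the FOXM1 probes, 1.41 for MYBL2 and 0.95 for E2F8. With slide as a fixed block 0 were called (smallest member adjusted p 0.0233 in limma), where 54 probes of all were. The differences of these 4 probes in that fit were 3.87, 4.05, 3.26 and 2.78. They were 3 in the authors' normalized table, where E2F8 had 2 undifferentiated and 6 differentiated values (difference 2.02, limma, adjusted p = 0.102). Leaving out 1 undifferentiated tumor gave between 1 and 3 called higher, and 0 lower, where between 293 and 847 probes of all were called. Of the alternatives chosen after seeing the data, missing background-flagged spots and leaving out T84 gave 4, where 518 and 513 probes of all were called. Direction turned for members that were not called. The log2 difference of E2F4 was 0.022 with normexp, 0.46 with slide as a fixed block, 0.12 with scan session, 0.042 with LM0 and between -0.29 and 0.29 with 1 undifferentiated tumor left out. E2F5 gave 0.39 and E2F7 -0.014 with slide as a fixed block. With 1 undifferentiated tumor left out, E2F3 probe 1 ran from -0.41 to 0.019, E2F3 probe 2 from -0.0061 to 0.83 and E2F7 from -0.12 to 0.80, with the turned value without T9 for E2F3 probe 1, E2F4 and E2F7 and without T57 for E2F3 probe 2. The cause was not tested. The 3 differences between members kept direction and stayed past an adjusted p of 0.05 in all alternatives run, exact permutation. With normexp, added after seeing the data, these fell in size, the smallest to 0.44. The 8 correlated pairs were 7 to 11, and the 11 with slide-centred values included E2F8 with E2F3 and with E2F4. Counts for sex, age and breed stayed 0 with the 75th percentile, and for sex in the differentiated tumors. No paired analysis was possible because the classes held tumors of different dogs. Slides and scan sessions shared by the classes entered as blocks. The planned correlation with MKI67 was not run, since no probe was matched by name. Levels near background limit the fold changes of E2F7, E2F8, FOXM1 probe 2, RRM2, CDC6 and TOP2A.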
